A study of Mus musculus with 24 samples.

Results

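Regulatory T cells (Tregs) that lacked the insulin receptor were compared with Tregs that kept it, isolated from visceral fat, here called visceral adipose tissue (VAT), of male mice aged to 52 weeks. The samples were those titled as knockout (KO, n = 6) and control (Ctrl, n = 3) mice at 52 weeks on chow, 9 of the 24 samples in the series, and all 96 genes of the panel entered the comparison. KO mice were Foxp3-YFP-Cre;Insr-fl/fl and Ctrl mice were Foxp3-YFP-Cre;Insr-wt/wt, both on a C57/Bl6 background, so both genotypes carried the Cre allele. The other 15 samples came from mice of the same 2 genotypes at 16 weeks of age: 5 KO and 4 Ctrl mice had eaten a high-fat, high-sucrose diet for 13 weeks, and 3 KO and 3 Ctrl mice had eaten chow. The mice were F4 animals bred from F3 littermates. Deletion is driven by the Foxp3 promoter, and the labels state that this Cre line also recombines DNA in cells other than Tregs. The series describes old age on chow as a setting of high circulating insulin, and the comparison asks what loss of the receptor does to VAT Tregs in that setting.

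Insulin binds a receptor tyrosine kinase, which passes the signal on through insulin receptor substrate proteins to kinases that control growth and metabolism. VAT Tregs are a tissue population known for the IL-33 receptor, the transcription factors PPAR gamma, GATA3 and IRF4, the growth factor amphiregulin and the cytokine IL-10. They restrain inflammation in fat, and in mice they are known to accumulate with age and to be depleted in obesity.

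Each mouse's tissue was digested separately, CD45+ CD4+ cells with the Foxp3(YFP) reporter were sorted, and their lysate was read on an nCounter instrument, which counts fluorescent barcodes bound to each mRNA. A value is the nCounter signal after the authors scaled the panel of each sample to a total near 100000, so every value is a share of the panel and not an amount per cell. Signals of a sample came in whole steps of equal size, each taken here as 1 barcode counted, though no label states this. Panel totals of 21487 to 135141 counts in KO mice and of 27591 to 94023 counts in Ctrl mice were read from these steps. These totals did not differ detectably between the genotypes (two-sided exact permutation test on the log2 scale, p = 0.8333). The smallest p that 6 against 3 mice allow in this test is 0.02381. Of the Treg markers used to check the label, Foxp3, CD25 and Helios were on the panel and were detected in all 9 samples. Foxp3 signal was 172 to 1418 in KO mice and 1462 to 2257 in Ctrl mice, against 2107 or more in all 16-week mice, so the lineage gene behind the sort took its smallest share of the panel in the sorted cells of old KO mice. A share can fall through a smaller fraction of Tregs among the sorted cells, less Foxp3 mRNA per Treg or more signal from other genes. In such bulk samples these cannot be told apart.

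Of the 96 genes, 23 passed an adjusted p of 0.05 between KO and Ctrl mice at 52 weeks (limma on log2(signal + 1), Benjamini-Hochberg adjustment), which is 24% of the panel. They comprised 20 genes lower in KO Tregs (20.8%) and 3 higher (3.12%). Without adjustment, 36 genes (37.5%) had a p under 0.05. In 22 genes (22.9%) the values of the 2 genotypes did not overlap, 17 lower (17.7%) and 5 higher (5.21%) in KO mice, and 13 of these 22 were among the 23 called. The median log2 fold change over all 96 genes was -0.60, and 64 genes had a negative one, so a gene at the panel's median was already lower in KO Tregs on this scale. KO replicates 1 and 6 resembled the other KO mice least, with a mean correlation of log2 values across genes of 0.841 and 0.860, against 0.880 to 0.906 for KO replicates 2 to 5. Without both of them 28 genes were called, 21 of the 23 among them.

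**Figure D1:**
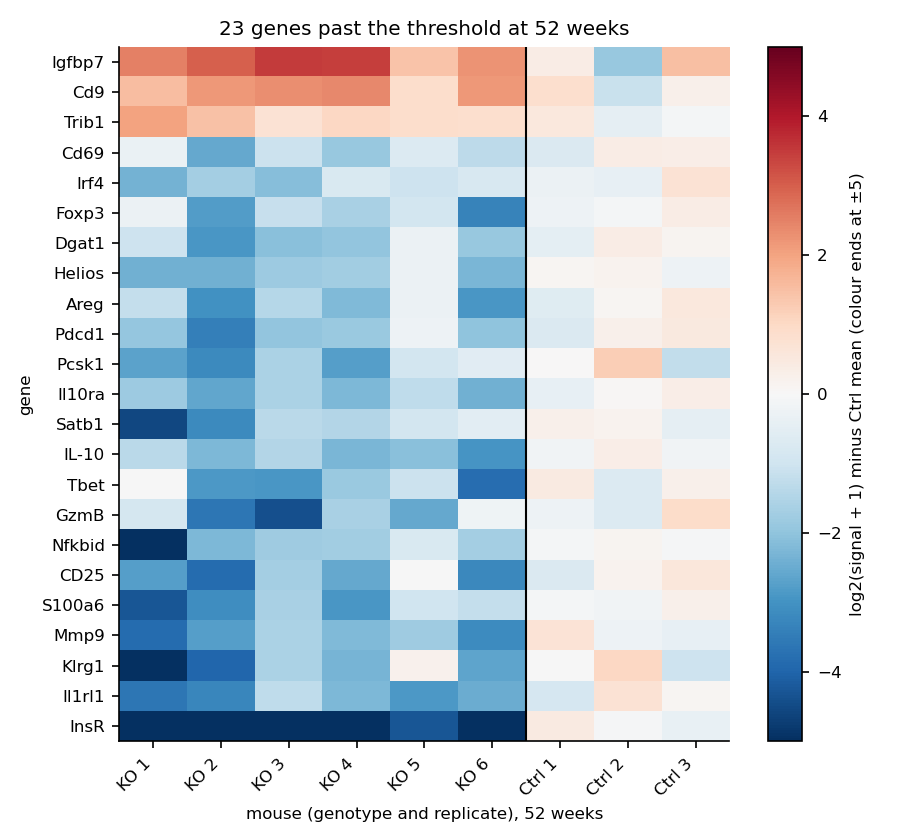
The 23 genes past the threshold at 52 weeks, 1 row per gene and 1 column per mouse, KO mice left of Ctrl mice. Colour gives log2(signal + 1) minus the mean of the 3 Ctrl mice, blue for lower and red for higher; the lower rows are blue across the KO columns, most faintly in KO replicate 5, where Klrg1 lies above the Ctrl mean, and the top 3 rows (Igfbp7, Cd9 and Trib1) are red.

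The number and direction of calls depended on what each sample was scaled to. The list of 6 immediate early and stress factors (Fos, Fosb, Nr4a1, Klf4, Atf3 and Trib1), genes that cells switch on within minutes of stimulation or handling, took 33.6%, 53.6%, 46.9%, 48.2%, 27.9% and 43.9% of the panel signal in KO replicates 1 to 6. In Ctrl replicates 1 to 3 they took 26.8%, 24.4% and 29.6%. The KO shares thus exceeded every Ctrl share in 5 of 6 mice, and KO replicate 5 lay among the Ctrl mice. In the same samples the median signal of a gene was 130 to 235 in KO mice and 299 to 351 in Ctrl mice. When the panel total was taken without these 6 genes, 11 genes (11.5%) were called, all among the 23, with 8 lower (8.33%: InsR, CD25, Helios, Il1rl1, Areg, IL-10, Il10ra and Pdcd1) and 3 higher (Cd9, Trib1 and Igfbp7), and the median log2 fold change over the panel was -0.24. When each sample was centred on its own median gene, 16 genes (16.7%) were called, 2 lower (2.08%: InsR and Il1rl1) and 14 higher (14.6%), and that median was 0.27. Centring on the 4 reference genes (Gusb, Hprt, Rpl19 and Sdha) gave 20 lower and 3 higher, with 22 of the 23 kept and a median of -0.77. Relative to the panel's own middle, then, InsR and Il1rl1 were lower and Cd9, Trib1 and Igfbp7 were higher under each of these 4 scalings, and the other 18 calls were not past the threshold after median centring. What part the immediate early share had in the other calls was not tested beyond these scalings.

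**Figure D2:**
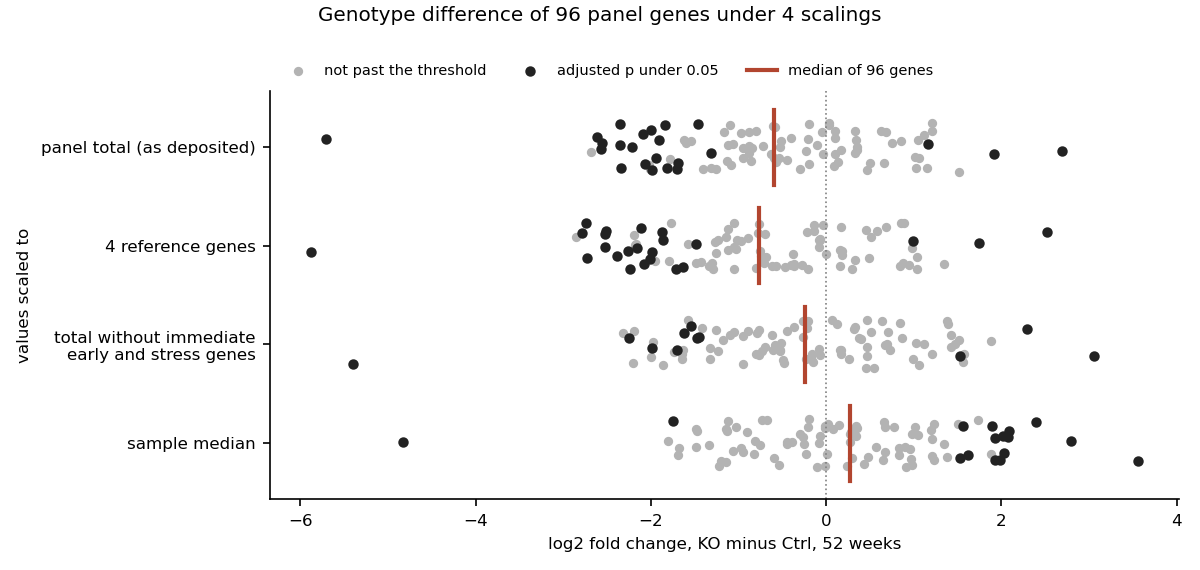
Log2 fold changes (KO minus Ctrl, 52 weeks) of the 96 genes under 4 scalings, 1 point per gene, dark where the adjusted p was under 0.05; the red line marks the median gene. The median lies at -0.60 as deposited, at -0.77 on reference genes, at -0.24 without the immediate early and stress list and at 0.27 after median centring, and 2 genes remain called on the lower side in the last.

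**Figure D3:**
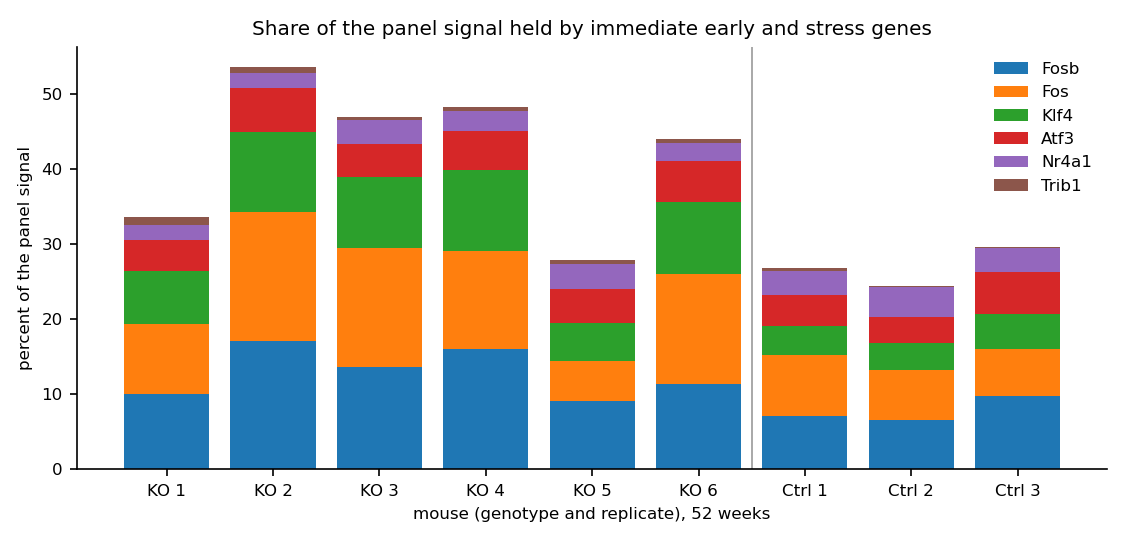
Percent of the panel signal taken by 6 immediate early and stress factors, stacked by gene, in each mouse at 52 weeks, KO mice left of Ctrl mice. The stacks reach 27.9% to 53.6% in KO mice and 24.4% to 29.6% in Ctrl mice.

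InsR, the deleted receptor gene, checked the labels. Its signal was 2.23, 3.30, 7.22, 8.16, 18.6 and 6.29 in KO replicates 1 to 6, against 513, 358 and 294 in Ctrl replicates 1 to 3. Every KO mouse was far below every Ctrl mouse, by a log2 fold change of -5.70 (SE 0.54, limma adjusted p = 3.3e-08). The counts behind the KO values were 2 to 4 per mouse, so the size of the fall is loosely set. Pooled over mice, 18 of 341629 counts in KO samples and 760 of 178044 in Ctrl samples were InsR. That is a Ctrl over KO ratio of 81.0, with a 95% exact interval of 50.9 to 137 that covers counting error only. The Ctrl counts of InsR were 480, 200 and 80, all multiples of 10, as were those of Mmp9 and Mmp12. In KO mice the counts of these genes were not all multiples of 10. No label explains this, so the ratio rests on Ctrl values that may not be plain counts. The related receptor and an adaptor of the same pathway gave no call: IGF1R, the receptor for insulin-like growth factor, averaged 66.4 ± 23.3 in KO and 67.2 ± 38.6 in Ctrl mice, and Irs2, a substrate protein of both receptors, averaged 878 ± 203 in KO and 1119 ± 471 in Ctrl mice (SD, n = 6 and n = 3). Their log2 fold changes were 0.04 (SE 0.40) for IGF1R and -0.30 (SE 0.40) for Irs2. InsR was therefore the only called gene of the 3 insulin and IGF signalling genes on the panel.

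Of 6 Treg lineage genes, 4 fell in KO Tregs, where 20.8% of the panel fell, and the other 2 (ICOS and Nrp1) were not called, with a median log2 fold change of -1.75 beside -0.60 for the panel. Foxp3, the transcription factor that defines Tregs, had signals of 1418, 253, 787, 565, 931 and 172 in KO mice, against 1462, 1633 and 2257 in Ctrl mice. The groups did not overlap, although KO replicate 1 came close to the lowest Ctrl mouse. Foxp3 fell by 1.69 on the log2 scale (SE 0.50, limma adjusted p = 0.021), a call that was lost when KO replicate 2, Ctrl replicate 2 or Ctrl replicate 3 was left out (highest adjusted p = 0.080). CD25, part of the high-affinity IL-2 receptor on which Tregs depend, had signals of 365, 172, 751, 418, 2420 and 260 in KO mice, against 1485, 2786 and 3610 in Ctrl mice. KO replicate 5 lay within the Ctrl range and the other 5 KO mice lay below it. CD25 fell by 2.35 (SE 0.54, limma adjusted p = 0.0042). Helios, a transcription factor that keeps Treg identity stable, had signals of 174, 173, 263, 279, 763 and 191 in KO mice, against 986, 1035 and 783 in Ctrl mice. All KO mice were below all Ctrl mice, KO replicate 5 just so, and Helios fell by 1.82 (SE 0.39, limma adjusted p = 0.0024). Satb1, a chromatin organiser needed early in Treg development, ran from 13.4 to 233 with a median of 128 in KO mice, against 405, 381 and 250 in Ctrl mice, and fell by 2.00 (SE 0.67, limma adjusted p = 0.032). Its call was lost when KO replicate 2 or any 1 of the Ctrl mice was left out, and after centring on reference genes. ICOS, a costimulatory receptor, had signals of 108 to 256 in KO mice, against 332, 458 and 452 in Ctrl mice. Those groups did not overlap, yet its log2 fold change of -1.06 (SE 0.40) missed the threshold at an adjusted p of 0.051. The T cell receptor gene Tcra ran from 7.43 to 698 in KO mice, against 1010, 2090 and 474 in Ctrl mice, and its log2 fold change of -2.68 (SE 1.05) was not called (adjusted p = 0.064).

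Of 17 genes of the VAT Treg programme, 7 fell (Il1rl1, Klrg1, Areg, IL-10, Irf4, Dgat1 and Pcsk1), Cd9 rose and 9 were not called, beside 20.8% lower and 3.12% higher over the panel. The median log2 fold change of the list was -1.46, against -0.60 for the panel, and the 9 uncalled genes ran from -2.02 to 0.03. Il1rl1 encodes ST2, the IL-33 receptor that sustains VAT Tregs. Its signal was 240, 310, 1231, 630, 404 and 537 in KO mice, against 1663, 4962 and 3161 in Ctrl mice. The groups did not overlap and Il1rl1 fell by 2.62 (SE 0.50, limma adjusted p = 0.0013). Besides InsR it was the only gene that stayed lower and past the threshold under all 4 scalings, under each omission of a mouse and with the 52-week mice fitted alone, a fit that called 5 genes (5.21%), all lower.

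Because Il1rl1 carries this result, the stretches around its annotated starts are printed from RefSeq (GRCm38.p6, plus strand), 250 bases before to 50 after each start, with matches to a GATA core (AGATAA, or TTATCT on the other strand) and a forkhead core (TGTTTAC, or GTAAACA on the other strand) in capitals.
Il1rl1, distal start, chr1:40429320-40429619: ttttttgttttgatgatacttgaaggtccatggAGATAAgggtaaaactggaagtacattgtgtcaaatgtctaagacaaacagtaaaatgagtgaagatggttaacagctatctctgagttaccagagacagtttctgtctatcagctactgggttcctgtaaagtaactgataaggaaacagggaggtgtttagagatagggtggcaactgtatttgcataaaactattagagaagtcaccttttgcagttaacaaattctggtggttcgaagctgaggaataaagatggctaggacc
Il1rl1, proximal start, chr1:40439379-40439678: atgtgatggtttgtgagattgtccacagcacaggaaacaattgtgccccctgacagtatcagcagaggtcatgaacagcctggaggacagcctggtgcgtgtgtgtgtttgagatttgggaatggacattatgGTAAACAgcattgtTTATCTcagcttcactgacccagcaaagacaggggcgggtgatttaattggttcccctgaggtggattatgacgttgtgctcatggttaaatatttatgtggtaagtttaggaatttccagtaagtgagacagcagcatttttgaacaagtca
The distal stretch holds a GATA core that begins 217 bases before the start. The proximal stretch holds a forkhead core that begins 117 bases before the start and a GATA core that begins 103 bases before it; the cores do not overlap. Among the 23 called genes, 14 had such stretches, 22 in all. The forkhead core was in 2 of the 22 (9.091%), against 3.65% of all 32851 RefSeq mouse stretches of this length, and the GATA core was in 3 (13.64%), against 11.18%. The other 2 matches were a GATA core at Foxp3 and a forkhead core at Pcsk1, shown with the bases that flank them on the plus strand.
Foxp3, chrX:7580409-7580468: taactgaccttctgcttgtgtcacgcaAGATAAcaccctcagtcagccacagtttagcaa
Pcsk1, chr13:75089786-75089846: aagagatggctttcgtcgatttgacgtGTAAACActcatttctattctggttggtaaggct
These letters describe the sequence, and no binding was measured here.

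Areg, the repair factor amphiregulin, had signals of 362, 101, 310, 182, 675 and 109 in KO mice, against 548, 886 and 1184 in Ctrl mice. KO replicate 5 lay within the Ctrl range, and Areg fell by 1.84 (SE 0.46, limma adjusted p = 0.0071), with the call lost without Ctrl replicate 3 (adjusted p = 0.056). Klrg1, an inhibitory receptor of differentiated tissue Tregs, ran from 23.0 to 931 with a median of 146 in KO mice, against 806, 1671 and 397 in Ctrl mice. KO replicate 5 again lay within the Ctrl values, and Klrg1 fell by 2.56 (SE 0.86, limma adjusted p = 0.032). Irf4, a transcription factor of effector Tregs, ran from 207 to 620 with a median of 424 in KO mice, against 864, 791 and 1735 in Ctrl mice. Its groups did not overlap and it fell by 1.46 (SE 0.49, limma adjusted p = 0.032). Dgat1, the enzyme of the last step of triglyceride synthesis, averaged 913 ± 617 in KO and 2569 ± 722 in Ctrl mice (SD, n = 6 and n = 3). KO replicate 5, at 2024, exceeded the lowest Ctrl mouse at 1782, and Dgat1 fell by 1.70 (SE 0.58, limma adjusted p = 0.034). The calls of Klrg1, Irf4 and Dgat1 were each lost in 4 to 6 of the 9 omissions of a mouse. Pparg and Gata3, transcription factors that shape VAT Tregs, were not called. Pparg had signals of 79.3 to 130 in KO mice, against 167, 109 and 176 in Ctrl mice (log2 fold change -0.54, SE 0.45), and Gata3 140 to 1653 in KO mice, against 721, 1264 and 967 in Ctrl mice (-0.95, SE 0.56). Prdm1, which encodes Blimp-1, a repressor in effector Tregs, had signals of 71.4 to 206 in KO mice, against 210, 381 and 210 in Ctrl mice. Its groups did not overlap, by a small margin, and its log2 fold change of -1.10 was not called (SE 0.44, adjusted p = 0.072). Ccr2, a chemokine receptor of tissue-homing cells, averaged 438 ± 233 in KO and 684 ± 495 in Ctrl mice (SD, n = 6 and n = 3), with a log2 fold change of -0.59 (SE 0.52) that was not called. It belongs also to a list of 8 chemokine receptors and homing genes, of which none was called (adjusted p from 0.095).

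Among 8 suppressive cytokines and effectors, IL-10, GzmB, Areg and Pcsk1 fell, 4 of 8 where 20.8% of the panel fell, and the median was -1.62 beside -0.60. IL-10, the anti-inflammatory cytokine, had signals of 135, 71.0, 123, 69.4, 79.1 and 44.0 in KO mice, against 303, 439 and 305 in Ctrl mice. Every KO mouse was at less than the lowest Ctrl value, and IL-10 fell by 2.07 (SE 0.42, limma adjusted p = 0.0019). Il10ra, the ligand-binding chain of its receptor, fell with it: signals were 225, 129, 260, 163, 326 and 147 in KO mice, against 594, 827 and 993 in Ctrl mice, a log2 fold change of -1.99 (SE 0.43, limma adjusted p = 0.0024). Both genes passed the threshold under each omission of a mouse. Pcsk1, a protease that processes prohormones, had signals of 60.2, 41.3, 130, 57.1, 205 and 258 in KO mice, against 388, 913 and 162 in Ctrl mice. KO replicates 5 and 6 exceeded Ctrl replicate 3, and the log2 fold change of -1.94 (SE 0.59, limma adjusted p = 0.024) was not past the threshold without Ctrl replicate 1 or 2 or KO replicate 2. GzmB, the protease granzyme B, ran from 7.22 to 149 with a median of 41.5 in KO mice, against 143, 107 and 323 in Ctrl mice. It fell by 2.21 (SE 0.72, limma adjusted p = 0.030), and 2 to 123 counts per KO mouse lay behind its values. That call was lost without KO replicate 2 or 3 or any 1 of the Ctrl mice (highest adjusted p = 0.17). Perforin, the pore-forming partner of granzymes, is not counted among the 8, because its panel name matched no symbol. It averaged 196 ± 159 in KO and 493 ± 190 in Ctrl mice (SD, n = 6 and n = 3), and its log2 fold change of -1.54 (SE 0.57) missed the threshold at an adjusted p of 0.051. Ebi3, a subunit of IL-27 and IL-35, had signals of 43.3 to 65.2 in KO mice, against 84.4, 59.1 and 36.8 in Ctrl mice. It showed no call (log2 fold change -0.10, SE 0.36). The 3 measured members of the cytokine receptor list (CD25, Il10ra and Il1rl1) fell, where 20.8% of the panel fell. Their median log2 fold change was -2.35, and the panel's median was -0.60. CD25 was already counted among the Treg lineage genes and Il1rl1 in the VAT Treg programme. Il9r, a cytokine receptor outside the cytokine receptor list, was not called (log2 fold change 0.34, SE 0.79).

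Among 6 activation and checkpoint receptors, Pdcd1, Cd69 and Klrg1 fell (20.8% of the panel fell), with a median of -1.32 over the list and -0.60 over the panel. Pdcd1, which encodes the inhibitory receptor PD-1, had signals of 250, 87.5, 245, 261, 805 and 237 in KO mice, against 572, 1139 and 1334 in Ctrl mice. KO replicate 5 exceeded the lowest Ctrl mouse, and Pdcd1 fell by 1.91 (SE 0.46, limma adjusted p = 0.0062). Cd69, an early activation and tissue retention receptor, ran from 444 to 2070 with a median of 1151 in KO mice, against 1595, 3416 and 3319 in Ctrl mice. KO replicates 1 and 5 exceeded the lowest Ctrl mouse, and Cd69 fell by 1.31 (SE 0.47, limma adjusted p = 0.044), a call kept in 3 of 9 omissions of a mouse. Tbet, the T helper 1 transcription factor that also marks a Treg subset, was the called gene among 4 regulators of effector lineages. Its signal was 325 in KO replicate 1 and 23.1 to 158 in the other KO mice, against 452, 208 and 397 in Ctrl mice, and it fell by 2.09 (SE 0.62, limma adjusted p = 0.021). That call was lost without KO replicate 2, Ctrl replicate 1 or Ctrl replicate 3. Rorgt, the T helper 17 factor that also marks gut Tregs, is not counted among those 4, because its panel name matched no symbol. It had signals of 24.5 to 233 in KO mice, against 261, 292 and 268 in Ctrl mice. Its groups did not overlap, yet with a log2 fold change of -1.62 and an SE of 0.84 it was not called (adjusted p = 0.16).

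Nfkbid, which encodes an atypical inhibitor of NF-kB that promotes Foxp3 induction, had signals of 16.3, 208, 281, 290, 572 and 302 in KO mice, against 916, 1085 and 941 in Ctrl mice. The groups did not overlap, and Nfkbid fell by 2.34 (SE 0.69, limma adjusted p = 0.021), a call lost when any 1 of the Ctrl mice was left out. The neutrophil chemokines Cxcl2 and Cxcl3, grouped with it, were not called. S100a6, a calcium-binding protein, ran from 11.1 to 116 with a median of 53.2 in KO mice, against 219, 211 and 283 in Ctrl mice, and fell by 2.35 (SE 0.72, limma adjusted p = 0.025). It was the called gene of 4 S100, annexin and galectin genes, whose other members ran from -0.52 to 1.21. Mmp9, a matrix-degrading gelatinase made by myeloid cells, ran from 12.6 to 65.0 with a median of 34.4 in KO mice, against 310, 161 and 147 in Ctrl mice. It fell by 2.55 (SE 0.83, limma adjusted p = 0.030), on 10 to 20 counts per KO mouse. Its Ctrl counts were 290, 90 and 40, multiples of 10 like those of InsR, for a reason that no label gives. Mmp9 signal averaged 206 in these Ctrl mice, against 12.6 on chow and 13.1 on high-fat diet in 16-week Ctrl mice. The fall of Mmp9, its direction included, therefore rests on Ctrl values that may not be plain counts. The calls of S100a6 and Mmp9 were lost when KO replicate 2 or any 1 of the Ctrl mice was left out. The macrophage gene Lyz2 gave no call (log2 fold change -0.20, SE 1.11). It ran from 198 to 6875 in KO mice, against 4806, 2937 and 132 in Ctrl mice. Summed over the 3 myeloid markers on the panel (Lyz2, Mmp9 and Mmp12), signal was 218 to 6900 with a median of 1544 in KO mice and 316, 3134 and 5767 in Ctrl mice. No gene was at 0 in any of the 9 samples, and the background level is unknown. Lyz2 had 114 to 3280 counts in KO mice and 36 to 4498 in Ctrl mice, and the part of myeloid RNA in the fall of the Treg genes was not tested.

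On this scale 3 genes rose in KO Tregs. Cd9, a tetraspanin of the cell surface and of extracellular vesicles, had signals of 696, 1075, 1180, 1275, 442 and 1073 in KO mice, against 431, 109 and 283 in Ctrl mice. All KO mice were above all Ctrl mice, KO replicate 5 by little, and Cd9 rose by 1.92 (SE 0.55, limma adjusted p = 0.021), with the call lost without Ctrl replicate 2 (adjusted p = 0.16). Trib1, a pseudokinase that directs protein breakdown, had signals of 1083, 740, 451, 561, 503 and 486 in KO mice, against 391, 201 and 254 in Ctrl mice. The groups did not overlap, and Trib1 rose by 1.16 (SE 0.36, limma adjusted p = 0.026), a call lost without KO replicate 2, Ctrl replicate 2 or Ctrl replicate 3. Igfbp7, a secreted binding protein typical of blood vessel and stromal cells, had signals of 4376, 5941, 8571, 8202, 2001 and 3622 in KO mice, against 987, 202 and 2143 in Ctrl mice. KO replicate 5 fell below Ctrl replicate 3, and Igfbp7 rose by 2.69 (SE 0.88, limma adjusted p = 0.030), a call kept in 4 of 9 omissions of a mouse. In 16-week mice it ran from 17.1 to 1151, below all 6 old KO mice. It is the 1 marker from the stromal, endothelial and adipocyte list on the panel. The sort was on CD45, CD4 and the Foxp3 reporter, and no other marker of stromal, endothelial or adipocyte cells was measured here. Whether the Igfbp7 signal came from the Tregs was not tested, nor was its part in the lower share of Treg genes.

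Of the 6 immediate early and stress factors, Trib1 was called and the other 5 were not on the deposited scale. After median centring Fos (adjusted p = 0.031), Fosb (0.030) and Klf4 (0.030) were called as higher too, 4 of the 6, where 14.6% of the panel was. Fos, Fosb and Klf4, chosen after their values were seen because they make up most of the list's share, had log2 fold changes of 0.75 (SE 0.43), 0.69 (SE 0.39) and 1.06 (SE 0.59), with adjusted p of 0.19 to 0.20. Klf4 signal was 5119 to 10725 in KO mice, against 3950, 3674 and 4680 in Ctrl mice, without overlap. Nr4a1, an early gene of T cell receptor signalling, was not called (log2 fold change -0.45, SE 0.33), and its sign turned after median centring (0.43). The 4 reference genes were not called either, with log2 fold changes of 0.09 to 0.36. Across the remaining lists, 1 of 4 lipid metabolism and adipokine receptor genes fell (Dgat1) and Il5, the 1 effector cytokine, was not called, at 1 to 9 counts per mouse.

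**Figure D4:**
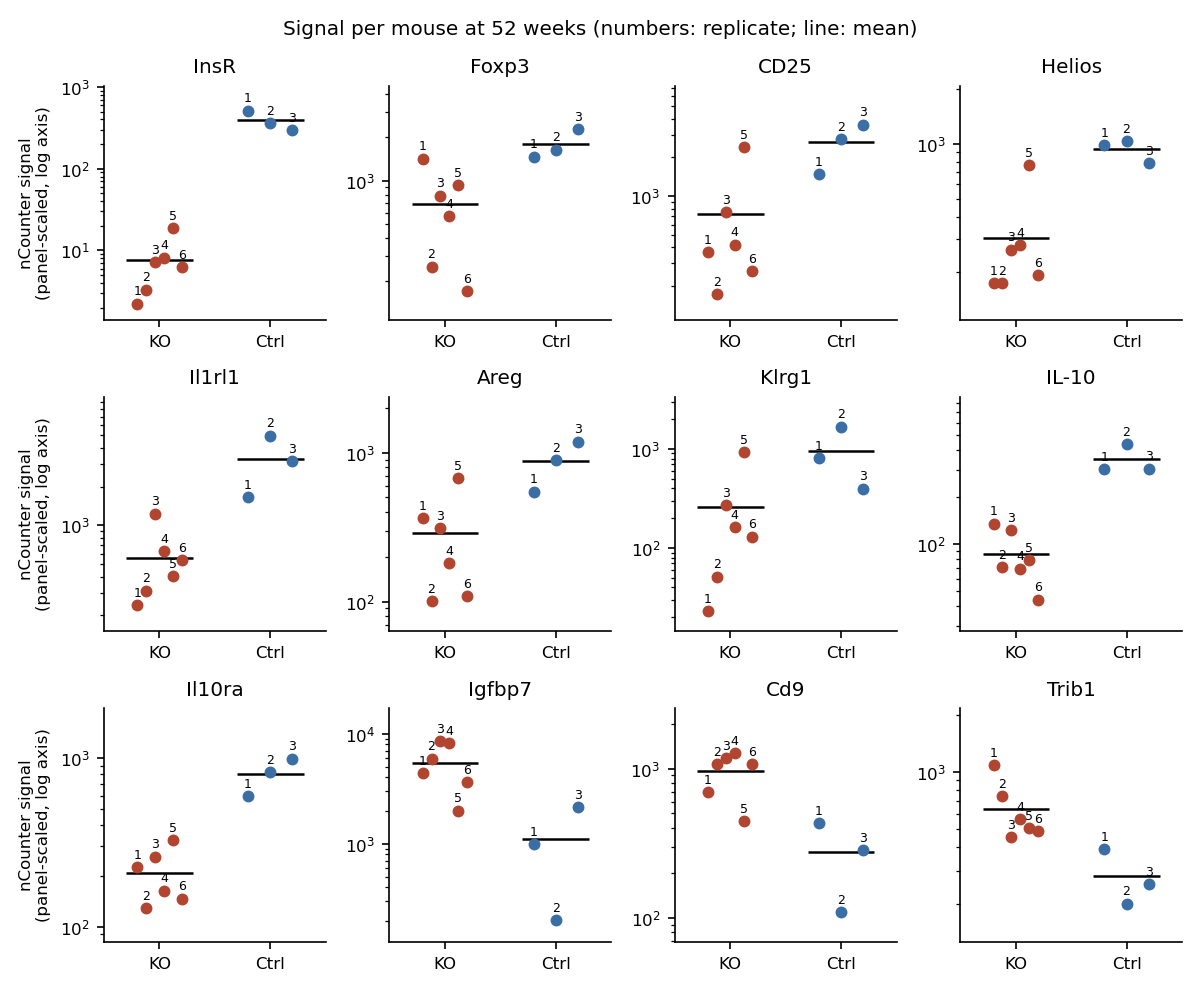
Signal of 12 genes in each mouse at 52 weeks on log axes, KO left and Ctrl right, with the replicate number at each point and the group mean as a line. InsR, Il1rl1, IL-10 and Il10ra separate fully and lower in KO; KO replicate 5 is the highest KO point for CD25, Helios, Areg and Klrg1 and the lowest for Igfbp7 and Cd9.

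The KO mice differed among themselves in how far they lay from the Ctrl mice. Over the 20 lower genes, KO replicates 2, 3 and 4 were below every Ctrl mouse for all 20, KO replicates 1 and 6 for 18, and KO replicate 5 for 13. These 20 genes were chosen by the same values, so high counts are built in and the counts only describe the mice. The median difference from the Ctrl mean was -2.38, -2.98, -1.61, -2.07, -0.92 and -2.35 log2 units in KO replicates 1 to 6. On these genes KO replicate 5 lay nearest the Ctrl group and KO replicate 2 farthest. Over all 96 genes, the mean correlation with the Ctrl mice was 0.867 for KO replicate 5 and 0.758 for KO replicate 2. It was 0.794 to 0.821 for the other KO mice. KO replicate 5 also had the smallest share of immediate early and stress signal among KO mice (27.9%), the lowest Igfbp7 and the smallest panel total (21487 counts). KO replicate 2 had the largest share (53.6%). Whether these traits are linked was not tested. InsR was far below the Ctrl values in all 6 KO mice, and its highest KO signal, 18.6 on 4 counts, was in KO replicate 5. Leaving out KO replicate 5 raised the count of called genes to 32, and leaving out KO replicate 2 lowered it to 10. The count was 13, 9 and 11 without Ctrl replicates 1, 2 and 3. The 7 genes InsR, CD25, Helios, Il1rl1, IL-10, Il10ra and Pdcd1 were called whichever mouse was left out, and none of the 23 changed direction.

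The same genotype difference was then set against that in 16-week mice, which are other animals. Within those settings, 2 genes were called on high-fat diet (2.08%), both lower, and 5 on chow (5.21%), 2 lower (2.08%) and 3 higher (3.12%). The difference at 52 weeks minus the difference on high-fat diet passed the threshold in 12 genes, 12.5% of the panel, with 11 lower (11.5%) and 1 higher (1.04%), and in 31 genes (32.3%) without adjustment. Of these 12, 9 were also called at 52 weeks. IL-10 gave the smallest p: on high-fat diet it averaged 107 ± 30.9 in KO and 42.0 ± 16.1 in Ctrl mice (SD, n = 5 and n = 4), a log2 fold change of 1.36 that was not called (adjusted p = 0.076). The difference between the settings was -3.43 (SE 0.58, limma adjusted p = 0.00050), and IL-10 remained past the threshold under all 24 omissions of a mouse and the other 14 settings tried. Il1rl1 had a log2 fold change of 0.29 on high-fat diet, and differed by -2.91 (SE 0.69, limma adjusted p = 0.013). Helios differed by -2.19 and Il10ra by -2.36, at the same adjusted p, with high-fat diet values of 0.37 for each. Pcsk1, CD25, Tbet, Dgat1, Pdcd1, ICOS and Tnfrsf9 also differed towards lower at 52 weeks (adjusted p from 0.016 to 0.040), with log2 fold changes of 0.18 to 1.18 on high-fat diet. Tnfrsf9, the costimulatory receptor 4-1BB, was not called at 52 weeks, with signals of 56.1 to 280 in KO mice, against 141, 324 and 478 in Ctrl mice. Myadm, a membrane protein of myeloid and other cells, differed upwards by 1.87 (SE 0.60, limma adjusted p = 0.040), with signals at 52 weeks of 1526 to 2426 in KO mice, against 1025, 1173 and 643 in Ctrl mice. After median centring 8 genes were called, 1 lower and 7 higher, and IL-10 and Myadm were the 2 of the 12 among them. On a panel total without the immediate early and stress list 12 were called, 8 lower and 4 higher, with 9 of the 12 shared. Leaving out Ctrl replicate 2 or Ctrl replicate 3 of the 52-week mice left 5 calls, and leaving out KO replicate 1 or KO replicate 5 gave 21. Age and diet both differ between these settings and cannot be told apart.

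Against chow-fed mice of 16 weeks, which ate the same diet, the genotype difference passed the threshold in 0 of 96 genes (0%) by limma, while 26 (27.1%) were under 0.05 before adjustment and 4 were called by voom on the recovered counts. Leaving out KO replicate 5 of the 52-week mice gave 7 calls. The smallest p values belonged to Lmna, a nuclear lamina gene (difference -2.49, SE 0.64, adjusted p = 0.075), Igfbp7 (4.74, SE 1.34), Helios (-2.03, SE 0.60), Myadm (2.17, SE 0.66) and Irs2 (-1.93, SE 0.61), the last 4 with adjusted p of 0.082 to 0.084. Lmna itself hardly differed at 52 weeks, averaging 2449 ± 940 in KO and 2698 ± 369 in Ctrl mice (SD, n = 6 and n = 3). The larger gap lay in the chow-fed mice, with 531 ± 58.8 in KO and 110 ± 21.9 in Ctrl mice (SD, n = 3 each). On chow at 16 weeks Irs2 was at 1.62 (limma adjusted p = 0.038), against -0.30 at 52 weeks. Igfbp7 was at -2.06, Myadm at -1.12 and Helios at 0.21 on chow, none of them called. These differences thus hold chow-fed values as well as 52-week ones. Among the genes lower at 52 weeks, InsR was also called on chow at 16 weeks, with a log2 fold change of -3.30 (SE 0.62, limma adjusted p = 0.0022). Klrg1 was at -3.15 there (SE 0.99, limma adjusted p = 0.066), beyond its -2.56 at 52 weeks, though not called. Il1rl1 was at -1.17 (SE 0.58) and CD25 at -1.16 (SE 0.63) on chow, neither called. IL-10 was at -0.09 (SE 0.48) and Foxp3 at 0.07 (SE 0.58). With 3 mice in each chow group, SEs of these differences ran from 0.60 to 1.34 for the genes named, so a difference of 1 log2 unit was under 2 SEs for each of them. On chow at 16 weeks, summed myeloid marker signal averaged 217 in KO and 254 in Ctrl mice. The immediate early and stress share averaged 13.9% in KO and 14.1% in Ctrl mice there. Both measures were lower than at 52 weeks, and their part was not tested.

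**Figure D5:**
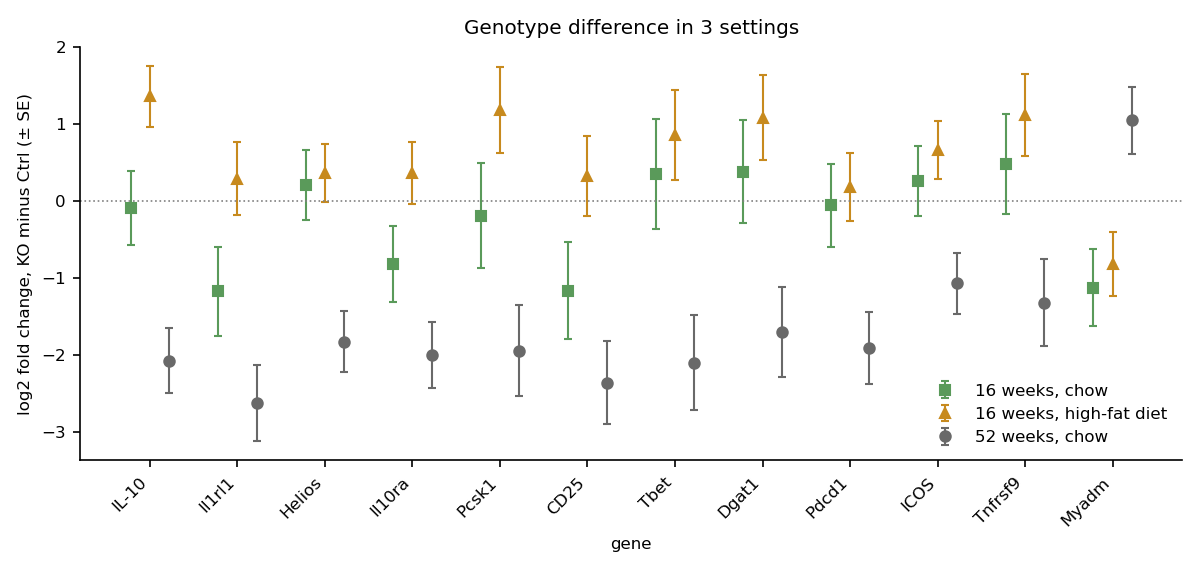
Log2 fold changes, KO minus Ctrl, with SE bars, of the 12 genes whose genotype difference at 52 weeks differed from that on high-fat diet, in 16-week mice on chow (squares), 16-week mice on high-fat diet (triangles) and 52-week mice (circles). For 11 genes the circle lies lowest, at -1.06 or below, and for Myadm it is the highest, at 1.05.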

How the data were processed

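VAT Tregs of 24 male mice were read on a custom nCounter panel of 96 genes. The deposited values are nCounter signal, scaled by the authors to a panel total of about 100000 per sample; this was read from the values, since no label gives background correction, positive-control scaling or software. Counts were recovered from the signal, whose steps within a sample were equal: 2302 of 2304 values came out whole to within 0.02 of a count. The 2 exceptions were CD25 in KO replicate 1 and Il1rl1 in KO replicate 5 of the 52-week mice. At 52 weeks the panel sums were 100000 to 100422 in KO mice and 100453 to 101426 in Ctrl mice. Of the 96 panel names, 88 matched a RefSeq symbol and 4 a synonym. The other names, Perforin and Rorgt among them, matched none or several, and those genes entered no gene list although they were measured. Genes are printed as the panel names them.

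Log2(signal + 1) of all 24 samples was fitted with limma 3.58.1 (R 4.3.3), 1 mean per genotype, age and diet group, with no gene filtered and no sample left out. Pooling the 6 groups gives 18 residual degrees of freedom, since 3 Ctrl mice alone set little spread. The p-values are two-sided, with Benjamini-Hochberg adjustment across the 96 genes of a comparison and a threshold of 0.05, and fold changes understate the change of low genes because of the pseudocount of 1. The fit was tested on simulated data. Medians and counts of gene lists are descriptions beside those of all 96 genes, with no test of a list. Lists share members, so the same call can count in more than 1 list.

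Named were all genes past the threshold at 52 weeks, preset Treg, insulin and reference genes, the 5 smallest p-values in each difference between settings, and the 5 next smallest at 52 weeks; Tnfrsf9, Fos, Fosb, Klf4 and Nr4a1 were chosen after their values were seen. The members, lists and rule were chosen with earlier results of these data known. Results for some genes are not reported here. Replicate numbers do not pair the mice: deviations of same-numbered KO and Ctrl mice correlated at -0.125, -0.246 and -0.06. No label gives run or cartridge batches. Alternatives were other pseudocounts, filters, scalings, weights, priors, a depth term, voom on recovered counts and omissions of each mouse. Motifs were matched by exact letters on both strands.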

Additional observations from a re-analysis of the deposited data

Results flagged for a closer look

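Of the 49 sets of KO values tested on the log2 scale (a share in percent) for a mouse that lies apart, 4 held one by Dixon's criterion, where chance gives about 1 in 20. Helios in KO replicate 5 was 763.3, against 173 to 279 in the other 5 (values printed here are signals). Nfkbid in KO replicate 1 was 16.35, against 208 to 572 in the other 5. Gusb, a reference gene, was 90.13 in KO replicate 6 and 220 to 253 in the other 5. Rpl19, another reference gene, was 19420 in KO replicate 1, against 7038 to 10192 in the other 5. On the signal scale itself, checked after seeing the data, Nfkbid no longer stood apart and 5 more genes did: InsR, CD25, Pdcd1 and Klrg1, each highest in KO replicate 5, and Lyz2, highest in KO replicate 6.

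The genotype difference at 52 weeks minus that on high-fat diet passed the threshold in 12 genes (limma, adjusted p in the report), and both age and diet differ between these settings. Myeloid marker signal and the immediate early and stress share differed between them as well. On the log2 scale it was -3.43 for IL-10, -2.91 for Il1rl1, -2.19 for Helios, -2.36 for Il10ra, -3.12 for Pcsk1, -2.68 for CD25, -2.95 for Tbet, -2.78 for Dgat1, -2.09 for Pdcd1, -1.73 for ICOS, -2.44 for Tnfrsf9 and 1.87 for Myadm. IL-10, Il1rl1, Helios and Il10ra passed under all 24 omissions of a mouse, while Myadm passed under 12 of them and Tnfrsf9 under 14.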

How the results depend on the processing

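As deposited, 23 genes were called at 52 weeks, against 5 with the 52-week mice fitted alone, 11 on a panel total without the immediate early and stress list (chosen after seeing the data) and 46 with array weights; the other settings gave 16 to 30. Omissions of a mouse gave 9 to 32. None of the 23 reversed. The 12 calls of the difference from high-fat diet became 35 with array weights and 23 with voom on recovered counts, and 5 to 21 under omissions. The 0 calls of the difference from chow became 8 with a pseudocount of 10, 3 without the 24 lowest genes, 1 after median centring, 1 with a single panel total, 23 with array weights, 3 with a variance trend, 4 with voom and 0 to 7 under omissions. Among genes named by the rule, these uncalled values changed sign. Centred on the sample median, Irs2 was 0.57, Pparg 0.34, Ebi3 0.77, Ccr2 0.29, Lyz2 0.68 and Lmna 0.66. Centred on reference genes, IGF1R was -0.13, Gusb -0.031, Hprt -0.068 and Rpl19 -0.086. Without the immediate early list, Irs2 was 0.068, Ebi3 0.27, Lyz2 0.17 and Lmna 0.16. With array weights Rpl19 was -0.13, and without KO replicates 1 and 6 together IGF1R was -0.10 and Rpl19 -0.089. Under omissions IGF1R ran from -0.33 to 0.47, Irs2 from -0.49 to 0.022, Ebi3 from -0.41 to 0.18, Lyz2 from -1.80 to 0.78, Gusb from -0.19 to 0.37, Hprt from -0.15 to 0.34, Rpl19 from -0.13 to 0.21 and Sdha from -0.37 to 1.14. The cause of these changes was not tested. The replicate number as a block gave 22 calls, 17 of them among the 23, and 11 in the difference from high-fat diet. Whether same-numbered mice were paired is not known. The test of panel totals gave p = 0.9048 on the linear scale (exact permutation). The 2 planned count models on recovered counts were not run, because too few low values were available to check the recovery. Among called genes, InsR and Mmp9 rest on 20 counts or fewer in all 6 KO mice, and S100a6 and GzmB in 3 each.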
